A study of Mus musculus with 6 samples.

Results

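The genes described here are 10 myeloid C-type lectin receptors, listed by name: *Clec4a1*, *Clec4a2*, *Clec4a3*, *Clec4d*, *Clec4e*, *Clec4n*, *Clec5a*, *Clec7a*, *Clec12a* and *Clec10a*. They and the gene lists set beside them were chosen with earlier results of these data known. The share of them that was called is therefore not that of an unselected set. Each gene was measured in every library as the sum of the estimated counts over its transcripts, and the 10 were read out of 36137 genes that matched the GRCm39 annotation. All 10 were among the 18506 genes tested, and no library held fewer than 136 counts of any of them. The question addressed was whether mRNA levels of these receptors differed between WT and Drp1 KO macrophages held under a culture model of ischemia.

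RNA was taken from bone marrow-derived macrophages (BMDMs), which are macrophages grown from marrow cells in medium conditioned by L929 cells. On day 7 the cells were moved to serum-free medium at 2.1% oxygen for 8 h, a treatment called hypoxia serum starvation (HSS), and both groups received it. The WT group carried LysM-Cre+/- with Drp1+/+, and the Drp1 KO group carried LysM-Cre+/- with Drp1 fl/fl, so that Cre was present in both. Each group had 3 libraries of poly(A) RNA with 23389488 to 32231206 estimated reads. LysM-Cre is driven by the lysozyme M promoter, which is active in macrophages, monocytes and neutrophils. Drp1, whose gene symbol is *Dnm1l*, is the dynamin-related GTPase of mitochondrial fission. The mice were young adults of both sexes, and marrow was pooled within a genotype. The labels call the libraries biological replicates, but whether each came from a separate pool is not stated, so the p-values measure the spread between these libraries.

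C-type lectin receptors bind sugars and other ligands on microbes and on damaged cells. *Clec7a* (Dectin-1, a receptor for fungal beta-glucans) signals through a single tyrosine motif in its own tail, called a hemITAM. *Clec4n* (Dectin-2, which binds mannans), *Clec4e* (Mincle, which binds mycobacterial cord factor and a protein released from dying cells) and *Clec4d* (MCL, the partner of Mincle) use the Fc receptor gamma chain, and *Clec5a* (MDL-1) uses DAP12. These activating receptors pass their signal to the kinase SYK and, for several of them, to the adaptor CARD9 and NF-kB. *Clec4a2* (DCIR) and *Clec12a* (MICL, a receptor for uric acid crystals) carry an inhibitory motif (ITIM) that recruits the phosphatases SHP-1 and SHP-2. *Clec4a1* (DCIR4) and *Clec4a3* (DCIR3) are close relatives of DCIR, and *Clec10a* (MGL1) binds galactose and N-acetylgalactosamine and is often used as a marker of alternative activation.

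The coding sequences set the inhibitory receptors apart from their relatives. Shown are the first 90 coding bases, 30 codons from the start codon, of the DCIR relatives, of *Clec12a* and of *Clec7a*, 5′ to 3′, from the GENCODE transcripts of GRCm39. Capitals mark the 6 codons of the ITIM or, in *Clec7a*, the 4 codons of its hemITAM.
*Clec4a1*: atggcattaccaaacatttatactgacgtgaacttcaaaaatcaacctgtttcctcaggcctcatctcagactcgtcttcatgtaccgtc
*Clec4a2*: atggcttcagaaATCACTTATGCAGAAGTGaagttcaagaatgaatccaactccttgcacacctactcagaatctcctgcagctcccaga
*Clec4a3*: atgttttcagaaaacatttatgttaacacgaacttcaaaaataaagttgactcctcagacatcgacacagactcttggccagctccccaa
*Clec12a*: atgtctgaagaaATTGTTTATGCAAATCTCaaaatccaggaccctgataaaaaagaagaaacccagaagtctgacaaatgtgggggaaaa
*Clec7a*: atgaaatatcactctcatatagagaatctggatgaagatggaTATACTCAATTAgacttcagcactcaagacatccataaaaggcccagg
The ITIM lay at codons 5 to 10 in both *Clec4a2* and *Clec12a*. None was found in these 30 codons of *Clec4a1* or *Clec4a3*. The hemITAM of *Clec7a* lay at codons 15 to 18.

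Before the receptors, the targeted gene was read. *Dnm1l* stood at 72.7, 69.9 and 75.1 CPM (read counts relative to library size, scaled between libraries by the trimmed mean of M values) in WT libraries 1 to 3, and at 58.7, 60.7 and 66.3 CPM in Drp1 KO libraries 1 to 3. The groups did not overlap, but the difference missed the threshold (log2 fold change -0.23, SE 0.0921, adjusted p = 0.248, edgeR). The sum takes reads from every exon, and the exons removed by Cre are not given in the sources used here, so this value does not check the genotype. Macrophage markers summed to 4192 to 4923 CPM in WT libraries and 3819 to 4786 CPM in Drp1 KO libraries, with all 7 detected. Library 1 of each group stood farthest from the others (chi-square per degree of freedom 31.5 to 43.9 against libraries 2 and 3, and 10.4 and 19.8 between those).

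Of the 10 receptors, 6 rose in Drp1 KO BMDMs and 0 fell at an adjusted p under 0.05 (edgeR quasi-likelihood test, Benjamini-Hochberg over all genes). Among all genes tested 3.36% were called by this rule, 2.29% as higher and 1.06% as lower. Among the 9413 genes whose mean reached 5 CPM, 5.50% were called and 3.64% rose. The 6 were *Clec4a1*, *Clec4a2*, *Clec4a3*, *Clec5a*, *Clec7a* and *Clec12a*, with 1.41-fold to 1.82-fold higher levels. The median log2 fold change was 0.51 over the 10 receptors and 0.005 over all genes. By the study's own looser rule, a small minimum fold change with an unadjusted p under 0.05, 7 receptors were higher and 2 lower. Of all genes 12.7% met that rule, 7.19% as higher and 5.48% as lower. The libraries of the groups did not overlap for 8 of 10 receptors, against 21.9% of all genes, and 6 of them were those higher in every Drp1 KO library (11.7% of all genes). With the replicate number as a block, 7 were called higher and 2 lower, against 6.73% and 5.22% of all genes (12.0% together). The count of 6 fell to 1 without WT library 2 (*Clec4a1*) and to 2 without WT library 3 (*Clec4a1* and *Clec4a2*). It was 3 without Drp1 KO library 2 (*Clec4a1*, *Clec4a2* and *Clec7a*), 4 without Drp1 KO library 3 (these and *Clec5a*) and 7 with libraries 2 and 3 of each group only. The mRNA was measured in bulk, so a change in the share of a cell type cannot be told apart from a change in mRNA per cell.

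**Figure D1:**
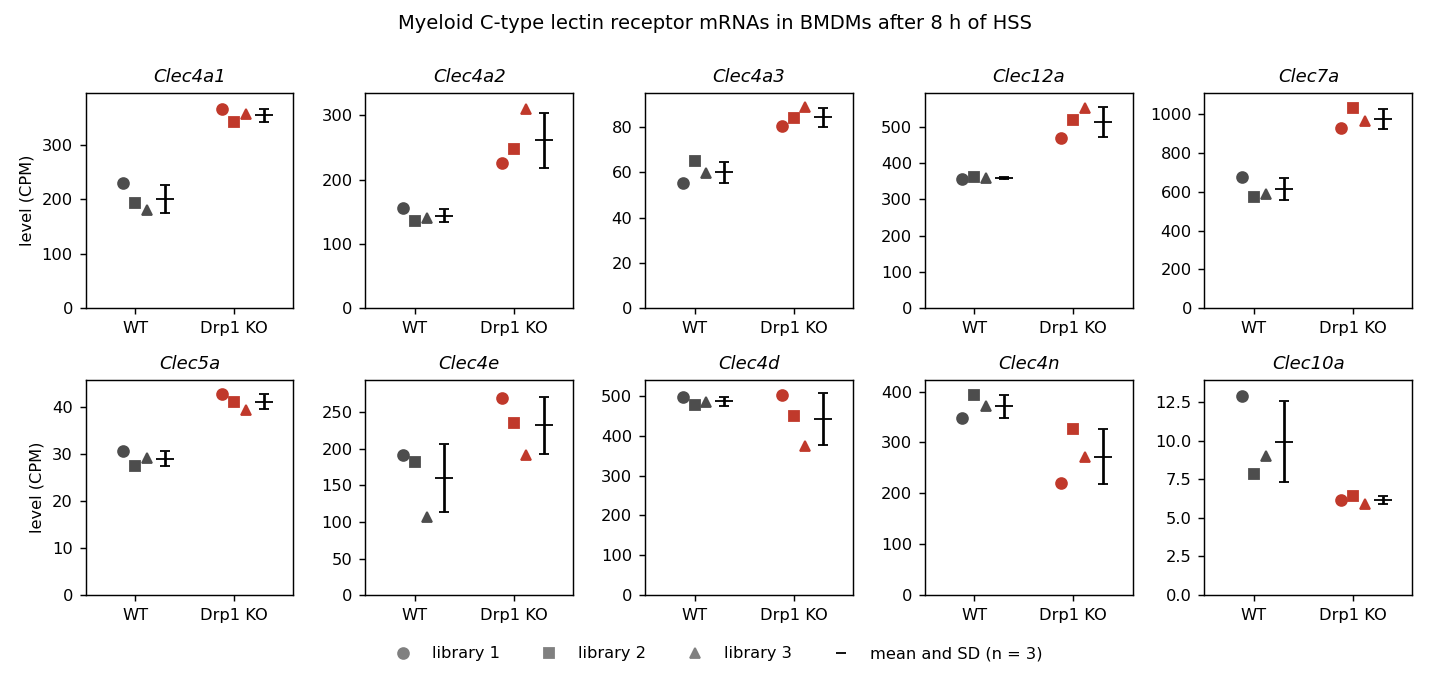
Levels of the 10 receptor mRNAs in CPM (y axis, from 0) in each of 3 WT and 3 Drp1 KO libraries, with the mean and SD beside the points. In the first 6 panels every Drp1 KO library lies above every WT library, Clec4e and Clec4d overlap between groups, and Clec4n and Clec10a lie lower in Drp1 KO.

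The inhibitory receptors both rose. *Clec4a2* (ENSMUSG00000030148, chr6:123083387-123120958, plus strand) stood at 155, 136 and 141 CPM in WT libraries 1 to 3 and at 227, 247 and 310 CPM in Drp1 KO libraries 1 to 3. Every Drp1 KO library lay above every WT library, and Drp1 KO library 3 was the highest. The means were 143.9 ± 9.98 and 261.1 ± 43.3 CPM (SD, n = 3), a log2 fold change of 0.86 (SE 0.125, adjusted p = 0.00536, edgeR). This call passed under 13 of 14 alternative settings and was lost without WT library 2 (adjusted p = 0.0575, edgeR). Of the 31-base words of its coding sequence, 38.2% also occur in other genes, mainly *Clec4a4* and *Clec4b1*. Those genes stood at means of only 1.31 and 0.558 CPM in WT libraries and 1.93 and 1.70 CPM in Drp1 KO libraries. The annotated gene *Gm44132* overlaps *Clec4a2* on the same strand.

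*Clec12a* (ENSMUSG00000053063, chr6:129319654-129342266, plus strand) was nearly constant among WT libraries, at 357, 361 and 359 CPM. It stood at 470, 520 and 551 CPM in Drp1 KO libraries 1 to 3, each of them higher than any WT library. The means were 358.9 ± 2.21 and 513.3 ± 40.8 CPM (SD, n = 3), with a log2 fold change of 0.52 (SE 0.0948, adjusted p = 0.0172, edgeR). The call passed under 10 of 14 settings. It was lost when a library was left out, with an edgeR adjusted p of 0.127 for WT library 2, 0.109 for WT library 3, 0.0747 for Drp1 KO library 2 and 0.0626 for Drp1 KO library 3, while the log2 fold change stayed between 0.47 and 0.57.

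The relatives of DCIR with no ITIM in their first 30 codons rose as well. *Clec4a1* (ENSMUSG00000049037, chr6:122896122-122911578, plus strand) stood at 230, 193 and 180 CPM in WT libraries and 365, 341 and 357 CPM in Drp1 KO libraries 1 to 3. The gap between the groups was larger than the spread within either. Its means were 200.7 ± 25.8 and 354.3 ± 12.1 CPM (SD, n = 3), a 1.77-fold difference (log2 fold change 0.82, SE 0.109, adjusted p = 0.00314, edgeR), and it passed under all 14 alternative settings. *Clec4a1* was also the only one of the 10 with a single transcript above the floor, so its level does not depend on how reads were shared among transcripts.

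*Clec4a3* (ENSMUSG00000043832, chr6:122929380-122948807, plus strand) was less abundant, at 55.4, 64.9 and 59.7 CPM in WT libraries and 80.4, 84.1 and 88.8 CPM in Drp1 KO libraries 1 to 3. The groups did not overlap, and the log2 fold change was 0.49 (SE 0.0971, adjusted p = 0.0233, edgeR). The difference shrank to a log2 fold change of 0.26 (adjusted p = 0.405, edgeR) when counts were scaled for transcript length. Leaving out WT library 2 gave an adjusted p of 0.0822, WT library 3 0.117, Drp1 KO library 2 0.0955 and Drp1 KO library 3 0.0801 (edgeR), so each of these also lost the call. Its main coding transcript, *Clec4a3-201*, held 79.2% ± 3.72 of the gene's counts in WT and 84.5% ± 6.09 in Drp1 KO libraries (SD, n = 3, exact permutation p = 0.5). That difference of 5.35 percentage points was 12.89 when shares were taken from TPM (exact permutation p = 0.1), 3.29 on leaving out WT library 3 and 1.88 on leaving out Drp1 KO library 2. A short coding transcript of 417 bases, *Clec4a3-203*, singled out after its values were seen, held 16.1% ± 2.54 and 10.1% ± 4.68 (exact permutation p = 0.1).

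Among the activating receptors, *Clec7a* was the most abundant in Drp1 KO cells and rose. *Clec7a* (ENSMUSG00000079293, chr6:129438554-129449742, minus strand) stood at 678, 575 and 590 CPM in WT libraries and 932, 1032 and 965 CPM in Drp1 KO libraries 1 to 3. The lowest Drp1 KO library was well above the highest WT library. The means were 614.3 ± 55.5 and 976.0 ± 51.0 CPM (SD, n = 3), with a log2 fold change of 0.67 (SE 0.103, adjusted p = 0.00707, edgeR). The call was lost without WT library 2 (adjusted p = 0.0835, edgeR) or WT library 3 (0.0685) and passed under the other 12 of 14 settings. The transcript that took 88.1% ± 0.733 of its counts in WT libraries (SD, n = 3), *Clec7a-203*, is one that GENCODE annotates as a loss-of-function coding transcript. The coding bases of *Clec7a* shown above are from it. By TPM its mean share was 63.8% in WT and 69.1% in Drp1 KO libraries, and that of the coding transcript *Clec7a-201* was 30.38% and 25.45%.

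*Clec5a*, the DAP12-coupled receptor, rose from a low level. *Clec5a* (ENSMUSG00000029915, chr6:40551234-40562773, minus strand) stood at 30.5, 27.4 and 29.1 CPM in WT libraries and 42.6, 41.1 and 39.4 CPM in Drp1 KO libraries 1 to 3. Both groups were tight and did not overlap. The log2 fold change was 0.50 (SE 0.0973, adjusted p = 0.0220, edgeR). The call was lost with length-scaled counts (adjusted p = 0.0563, edgeR). It was lost as well on leaving out WT library 2 (0.158), WT library 3 (0.118) or, from the other group, library 2 (0.0835). *Clec5a* lies alone on chromosome 6, far from the other receptors, and *Or9a4* overlaps it on the opposite strand. Whether counting used strand is not stated. Most counts of *Clec5a* lay on *Clec5a-201*, a transcript annotated with no defined coding sequence. It held 77.8% ± 1.63 in WT and 79.6% ± 4.88 in Drp1 KO libraries (SD, n = 3, exact permutation p = 0.8). The coding transcripts *Clec5a-203* and *Clec5a-202* had means of 3.70 and 2.62 CPM in WT and 4.83 and 3.44 CPM in Drp1 KO libraries.

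The Fc receptor gamma chain-coupled receptors *Clec4e*, *Clec4n* and *Clec4d* did not pass, and they differed in direction. *Clec4e* (ENSMUSG00000030142, chr6:123258748-123266829, minus strand) stood at 192, 182 and 107 CPM in WT libraries and 269.8, 235 and 191 CPM in Drp1 KO libraries 1 to 3. WT library 3 was low, and the groups overlapped, since Drp1 KO library 3 lay just below WT library 1. The log2 fold change was 0.53 (SE 0.204, adjusted p = 0.222, edgeR), and without WT library 3 it was 0.30 (adjusted p = 0.494, edgeR). Within same-numbered libraries Drp1 KO was higher in 3 of 3 pairs, and with the replicate block the log2 fold change was 0.56 (adjusted p = 0.00328, edgeR). That was the only one of 14 settings under which *Clec4e* passed. An annotated retained-intron transcript, *Clec4e-203*, held 52.9% ± 2.67 of its counts in WT and 55.2% ± 0.535 in Drp1 KO libraries (SD, n = 3, exact permutation p = 0.4).

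*Clec4n* (ENSMUSG00000023349, chr6:123206802-123223980, plus strand) stood at 349, 393 and 371 CPM in WT libraries and 219, 326 and 270.4 CPM in Drp1 KO libraries 1 to 3. All Drp1 KO libraries lay below all WT libraries, but they spread widely. The log2 fold change was -0.45 (SE 0.137, adjusted p = 0.123, edgeR). It passed with the replicate block (-0.46, adjusted p = 0.00576, edgeR), with DESeq2 (adjusted p = 0.0317), with a filter of at least 1 count (0.0325) and with libraries 2 and 3 of each group only (0.0493).

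*Clec4d* (ENSMUSG00000030144, chr6:123239070-123252230, plus strand) stood at 498, 477 and 484 CPM in WT libraries and 503, 449.5 and 375 CPM in Drp1 KO libraries 1 to 3. The groups overlapped, with Drp1 KO library 1 the highest of the 6 and Drp1 KO library 3 the lowest. The log2 fold change was -0.14 (SE 0.116, adjusted p = 0.648, edgeR), and it passed under 0 of 14 settings, with adjusted p from 0.186 to 0.954 among them. With a library left out the log2 fold change ran from -0.25 to -0.03.

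*Clec10a* (ENSMUSG00000000318, chr11:70047023-70061660, plus strand) was the least abundant of the receptors. It stood at 12.9, 7.87 and 9.03 CPM in WT libraries and 6.17, 6.39 and 5.89 CPM in Drp1 KO libraries 1 to 3. All Drp1 KO libraries lay below all WT libraries, and WT library 1 was the highest. The log2 fold change was -0.69 (SE 0.191, adjusted p = 0.0883, edgeR). It passed with the replicate block (-0.66, adjusted p = 0.0180, edgeR), with DESeq2 (0.0210) and with a filter of at least 1 count (0.0266). Its near copy *Mgl2* holds 41.0% of the 31-base words of its coding sequence but was listed at a mean of 0.482 CPM in WT libraries and 0.0815 CPM in Drp1 KO libraries, the latter under the floor of 3 counts per library (0.0916 to 0.136 CPM).

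Per transcript length, the order of the receptors differed between the genotypes. In WT libraries *Clec4d* led with 753.6 ± 38.3 TPM (a level per transcript length, SD, n = 3), followed by *Clec7a* with 699.1 ± 54.6 TPM, and the ranges of these neighbours overlapped. *Clec4n* (579 TPM), *Clec12a* (451 TPM), *Clec4a2* (267 TPM) and *Clec4a1* (219 TPM) followed with no overlap between neighbours. *Clec4a3* (145 TPM) and *Clec4e* (129 TPM) overlapped, and *Clec5a* (35.9 TPM) and *Clec10a* (19.9 TPM) were lowest. In Drp1 KO libraries *Clec7a* led alone with 974.0 ± 52.6 TPM, above *Clec4d* with 678 TPM. The levels of *Clec4d*, *Clec12a* (615 TPM), *Clec4a2* (470.4 TPM), *Clec4n* (399 TPM) and *Clec4a1* (364 TPM) then ran on with overlap between each pair of neighbours. *Clec4e* (178 TPM) and *Clec4a3* (163 TPM) overlapped, and *Clec5a* (47.1 TPM) and *Clec10a* (13.1 TPM) were again lowest.

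All but *Clec10a* lie on chromosome 6, and 8 of them in 2 clusters. The Dectin-2 cluster spans 370.7 kb from *Clec4a1* to *Clec4e*, and the Dectin-1 cluster 164.5 kb from *Clec12a* to *Olr1*. In the Dectin-2 cluster the genes that passed lay in the first 224.8 kb, from *Clec4a1* through *Clec4a3* and the low-level gene *Clec4b1* to *Clec4a2*. *Clec4a4*, at 71.2 to 104.9 kb within this stretch, did not pass (log2 fold change 0.57, SE 0.288, adjusted p = 0.370, edgeR). *Clec4b2*, listed at means of 0.142 and 0.189 CPM, and *Clec4n*, *Clec4d* and *Clec4e*, at 310.7 to 370.7 kb, did not pass either. The stretch is set by the threshold, since *Clec4e* (log2 fold change 0.53, SE 0.204) changed as much as *Clec4a3* (0.49, SE 0.0971). In the Dectin-1 cluster *Clec12a* and *Clec7a* stand at either side of *Clec12b*, *Clec1b*, *Clec1a* and *Clec9a*, which had means of 0.168 to 2.89 CPM in WT libraries and did not pass.

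**Figure D2:**
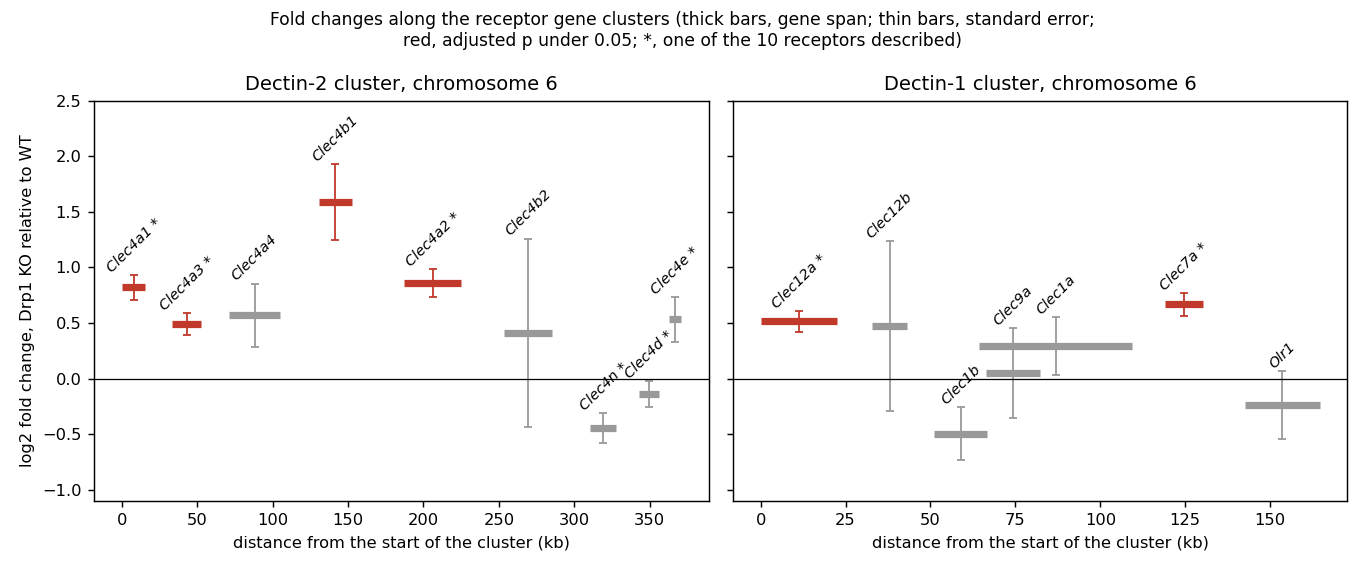
Log2 fold change of Drp1 KO relative to WT (y axis) against distance in kb from the start of each receptor gene cluster (x axis), with gene spans as thick bars and standard errors as thin bars. Red genes passed an adjusted p under 0.05, and in the Dectin-2 cluster they lie at 0 to 224.8 kb, with Clec4a4 in grey among them.

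The stretch around the transcription start was searched for short motifs. Shown 5′ to 3′ on the gene's strand are 250 bases before and 50 after the start of the most abundant transcript of 2 receptors that rose and hold the core motif of the myeloid factor PU.1 (*Clec4a1* and *Clec7a*), 1 that rose without it (*Clec12a*) and 1 that did not pass (*Clec4n*), from the GRCm39 genome. Capitals mark the core GAGGAA on either strand.
*Clec4a1*, chr6:122898557-122898856, plus strand: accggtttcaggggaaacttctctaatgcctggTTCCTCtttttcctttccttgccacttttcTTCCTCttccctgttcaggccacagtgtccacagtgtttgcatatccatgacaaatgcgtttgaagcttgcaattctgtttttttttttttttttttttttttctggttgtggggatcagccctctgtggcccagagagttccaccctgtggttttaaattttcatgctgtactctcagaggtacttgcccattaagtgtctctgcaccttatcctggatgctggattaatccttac
*Clec7a*, chr6:129449686-129449985, minus strand: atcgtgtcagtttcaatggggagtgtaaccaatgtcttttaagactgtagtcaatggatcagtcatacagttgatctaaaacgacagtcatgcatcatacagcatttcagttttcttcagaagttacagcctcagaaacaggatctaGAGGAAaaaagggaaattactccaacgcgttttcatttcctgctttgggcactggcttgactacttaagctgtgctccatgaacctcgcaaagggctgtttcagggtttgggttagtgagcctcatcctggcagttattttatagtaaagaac
*Clec12a*, chr6:129326677-129326976, plus strand: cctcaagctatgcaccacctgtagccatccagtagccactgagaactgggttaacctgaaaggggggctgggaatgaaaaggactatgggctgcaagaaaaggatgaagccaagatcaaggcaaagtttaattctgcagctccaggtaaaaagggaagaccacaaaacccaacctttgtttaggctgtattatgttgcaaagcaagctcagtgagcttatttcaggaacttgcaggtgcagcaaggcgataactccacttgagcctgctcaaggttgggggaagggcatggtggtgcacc
*Clec4n*, chr6:123206552-123206851, plus strand: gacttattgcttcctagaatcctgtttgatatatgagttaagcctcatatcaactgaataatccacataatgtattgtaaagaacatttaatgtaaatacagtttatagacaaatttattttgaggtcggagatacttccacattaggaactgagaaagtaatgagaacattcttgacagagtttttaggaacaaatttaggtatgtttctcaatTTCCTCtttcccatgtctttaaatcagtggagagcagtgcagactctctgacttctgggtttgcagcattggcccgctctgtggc
The core GAGGAA was found in 8 of 10 receptor promoters and in 27.7% of the promoters of all 18506 genes tested. The receptors without it in this window were *Clec4a2* and *Clec12a*, which both rose, while *Clec4n*, *Clec4d*, *Clec4e* and *Clec10a*, which did not pass, held it. The C/EBP motif TTNNGNAA was found in 6 of 10 (39.9% of all), the interferon-stimulated response element (ISRE) in 1 of 10, *Clec4d* (3.9% of all), and the kappaB motif in 0 of 10 (1.6% of all). In *Clec4d* the ISRE overlaps a PU.1 core. These matches describe letters in a window and not binding.

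Below the gene level, 8 of 37 receptor transcripts took shares of their gene's counts that did not overlap between the groups, close to the 17.4% of 48918 transcripts of all genes. They were 3 of *Clec4d*, 2 of *Clec4a2* and 1 each of *Clec4a3*, *Clec4n* and *Clec10a*. *Clec4d* and *Clec4a2* are described here, picked after their values were seen. The coding transcript *Clec4d-201* took 93.5%, 93.7% and 92.9% of the gene's counts in WT libraries and 88.9%, 89.4% and 85.6% in Drp1 KO libraries 1 to 3. An annotated retained-intron transcript, *Clec4d-202*, took 2.88%, 3.38% and 3.57% in WT libraries and 6.17%, 6.03% and 9.35% in Drp1 KO libraries. Each Drp1 KO library thus held a smaller coding share and a larger retained-intron share than any WT library. In CPM, *Clec4d-202* stood at 14.3, 16.1 and 17.3 in WT and 31.1, 27.1 and 35.0 in Drp1 KO libraries, while *Clec4d-201* stood at 466, 447 and 449 against 448, 402 and 321. The share of *Clec4d-201* differed by -5.41 percentage points (p = 0.1 in a two-sided exact permutation test, which cannot give a smaller p with 3 libraries a group), and by -10.41 points when shares were taken from TPM. The main coding transcript of *Clec4a2*, *Clec4a2-204*, held 68.7% ± 0.523 of its counts in WT and 74.5% ± 1.26 in Drp1 KO libraries (SD, n = 3, exact permutation p = 0.1), a difference of 5.79 points by counts and 3.49 by TPM. These shares are kallisto's estimates from short reads, with no error given for the split.

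**Figure D3:**
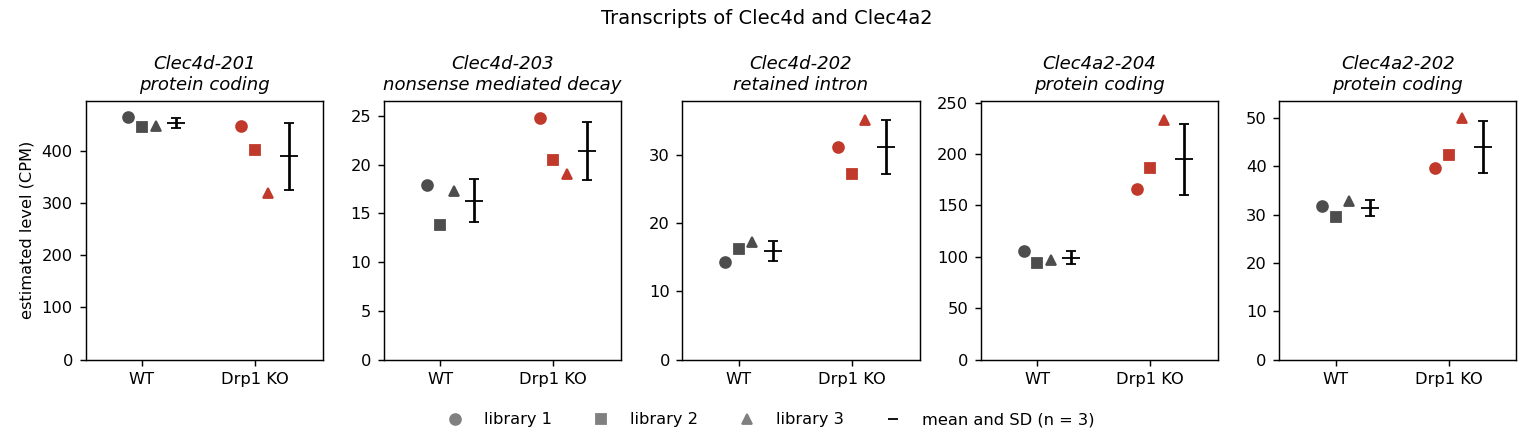
Estimated levels in CPM (y axes, from 0) of 3 transcripts of Clec4d and 2 of Clec4a2 in each library, with mean and SD (n = 3). Clec4d-202, the retained-intron transcript, stood at 14.3 to 17.3 CPM in WT libraries and 27.1 to 35.0 CPM in Drp1 KO libraries, while both Clec4a2 transcripts are higher in every Drp1 KO library.

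The signaling genes behind the receptors did not pass. Of 14 activating adaptors and kinases 0 were called (edgeR and DESeq2), where 3.36% of all genes were called by edgeR. An unadjusted p under 0.05 was found for 3 (16.4% of all genes), and the median log2 fold change was 0.05. *Syk*, the kinase shared by the activating receptors, stood at 745, 673 and 631 CPM in WT libraries and 739, 604 and 592 CPM in Drp1 KO libraries (log2 fold change -0.08, SE 0.117, adjusted p = 0.820, edgeR). *Fcer1g*, which encodes the Fc receptor gamma chain, stood at 577, 539 and 566 CPM in WT libraries and 757, 594 and 499 CPM in Drp1 KO libraries. Its groups overlapped (0.14, SE 0.141, adjusted p = 0.717, edgeR), and the sign turned without Drp1 KO library 1 (-0.05). *Lyn*, a Src-family kinase, had 0.13 (SE 0.0983, adjusted p = 0.583, edgeR). *Tyrobp* (DAP12) and *Card9*, named here after their values were seen, had 0.11 (SE 0.112, adjusted p = 0.707) and -0.02 (SE 0.133, adjusted p = 0.982, edgeR).

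Of 3 inhibitory phosphatases 0 were called (0 at an unadjusted p under 0.05, 0 by DESeq2), and *Ptpn6* (SHP-1) had a log2 fold change of -0.19 (SE 0.109, adjusted p = 0.441, edgeR). For *Ptpn6* it was -0.40 with length-scaled counts (adjusted p = 0.236, edgeR) and -0.11 without Drp1 KO library 2. Of 6 transcription factors of these cells 0 were called (0 at an unadjusted p under 0.05, 0 by DESeq2). Over all genes 3.36% were called by edgeR and 16.4% had an unadjusted p under 0.05. *Cebpb* (C/EBP beta), with -0.07 (SE 0.280, adjusted p = 0.959, edgeR), and *Irf8*, with 0.02 (SE 0.201, adjusted p = 0.988, edgeR), varied more among libraries than between groups, and both signs turned when single libraries were left out.

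Of the genes that SYK and CARD9 signaling is known to induce, 14 of 16 were tested and 0 were called by edgeR (3.36% of all genes). There were 2 at an unadjusted p under 0.05 (16.4% of all genes) and 1 by DESeq2. Their median log2 fold change was 0.12. *Ptgs2*, the cyclooxygenase of prostaglandin synthesis, stood at 33.9, 32.1 and 24.4 CPM in WT libraries and 49.8, 34.4 and 30.3 CPM in Drp1 KO libraries (0.34, SE 0.189, adjusted p = 0.428, edgeR). Without Drp1 KO library 1 the log2 fold change of *Ptgs2* was 0.09, and without WT library 3 it was 0.19. *Nlrp3*, an inflammasome sensor, had -0.08 (SE 0.131, adjusted p = 0.844, edgeR), and its sign turned without Drp1 KO library 2 (0.03). *Egr2*, an early response factor singled out afterwards, was the gene that passed by DESeq2 and with the replicate block, as lower (-0.64, adjusted p = 0.137 without and 0.0227 with the block, edgeR).

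**Figure D4:**
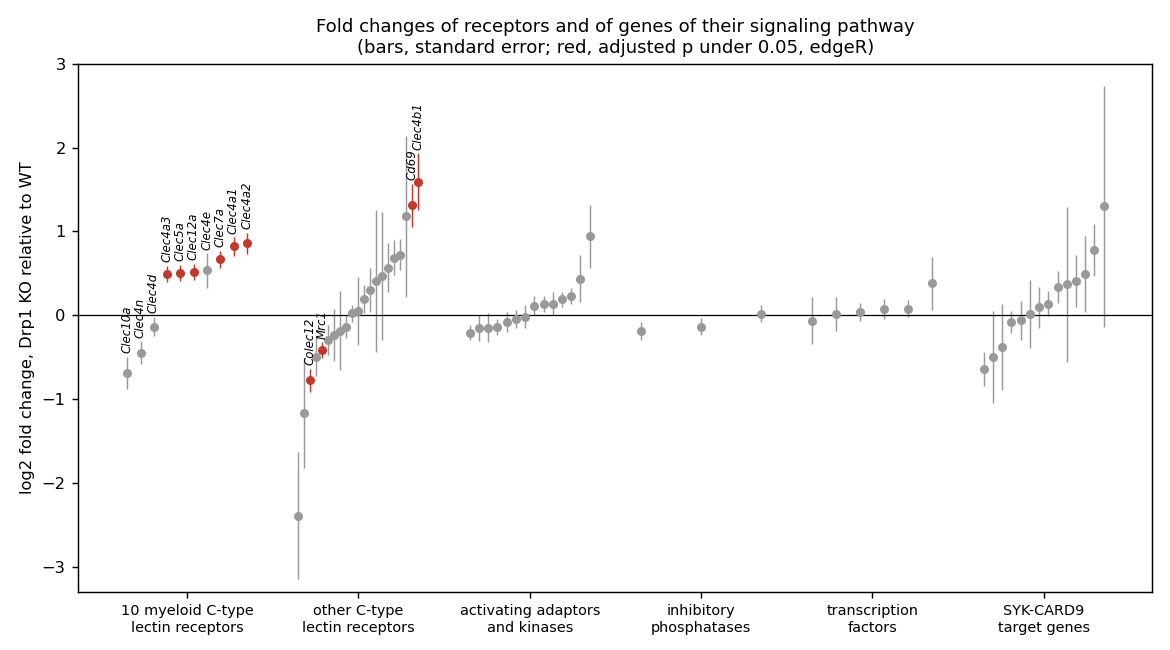
Log2 fold change of Drp1 KO relative to WT (y axis) with standard error for the 10 receptors and for each tested gene of 5 lists (x axis), in red where the adjusted p was under 0.05. Here 6 of the 10 receptors are red and above 0, against 2 above and 2 below 0 among the other C-type lectins and 0 in the 4 signaling lists. Of all genes tested 3.36% were called.

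Of 28 other C-type lectin genes 21 were tested, of which 2 rose and 2 fell, against 2.29% and 1.06% of all genes. Their median log2 fold change was 0.05. *Cd69*, an early activation marker, rose from 2.30 ± 0.879 to 5.71 ± 0.274 CPM (SD, n = 3, log2 fold change 1.31, SE 0.257, adjusted p = 0.0228, edgeR). *Clec4b1*, a Dectin-2 cluster gene, rose from 0.558 ± 0.203 to 1.70 ± 0.0907 CPM (1.59, SE 0.341, adjusted p = 0.0334, edgeR). It shares sequence with the far more abundant *Clec4a2*, so its level is uncertain. *Mrc1* (the mannose receptor CD206) fell from 1490 ± 65.7 to 1115 ± 34.3 CPM (-0.42, SE 0.0938, adjusted p = 0.0408, edgeR). *Colec12*, a scavenger receptor with a collagen stalk, fell from 27.5 ± 4.75 to 16.1 ± 0.589 CPM (-0.78, SE 0.137, adjusted p = 0.0144, edgeR). All 4 calls were lost on leaving out WT library 3, or library 2 or 3 of the Drp1 KO group (adjusted p 0.0546 to 0.163, edgeR). Without WT library 2 those of *Clec4b1* (0.0789), *Mrc1* (0.155) and *Colec12* (0.0790) were lost too, and without WT library 1 that of *Mrc1* (0.0724, all edgeR). With the replicate block 4 were called higher and 3 lower, against 6.73% and 5.22% of all genes. The added ones were *Clec2i* (adjusted p = 0.0654 without and 0.00633 with the block) and *Pla2r1* (0.112 and 0.0237) as higher and *Mgl2* (0.132 and 0.0389, edgeR) as lower. *Clec2d*, the most abundant of those not called, had 0.02 (SE 0.105, adjusted p = 0.965, edgeR).

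Several of the receptors are also made by neutrophils, monocytes and dendritic cells, so markers of these cells were read in the same libraries. The 10 neutrophil markers summed to 7.50, 19.9 and 22.2 CPM in WT libraries and 21.3, 49.4 and 47.6 CPM in Drp1 KO libraries 1 to 3, with *Ly6g* at 0 in all 6. All 7 tested were higher, 4 at an unadjusted p under 0.05 (16.4% of all genes) and 2 by DESeq2. By edgeR's adjusted p 0 were called (3.36% of all genes), and with the replicate block 4 (12.0% of all genes). The 5 monocyte markers summed to 8.75 to 12.5 CPM in WT libraries and 13.1 to 20.03 CPM in Drp1 KO libraries, with 0 called (3 at an unadjusted p under 0.05, 0 by DESeq2, 1 with the block). The 9 dendritic cell markers summed to 64.1 to 96.6 CPM in WT libraries and 51.0 to 81.6 CPM in Drp1 KO libraries, with *Cd209a* at 0 in all 6 and 0 called (2 at an unadjusted p under 0.05, 0 by DESeq2). Lymphocyte and fibroblast markers summed to at most 4.05 and 3.06 CPM, and those of mast cells and basophils to at most 0.454 CPM. Of the 7 macrophage markers, *Fcgr1* (CD64) rose from 65.8 ± 7.22 to 166.5 ± 13.7 CPM (SD, n = 3), while 2 fell (*Csf1r* and *Mertk*, log2 fold change -0.52 for each). The call of *Fcgr1* passed under all 14 alternative settings, that of *Csf1r* under 8 and that of *Mertk* under 10. The part of any of these cells in the receptor levels was not tested.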

How the data were processed

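BMDMs from WT and Drp1 KO mice were sequenced after 8 h of HSS, with 3 libraries a group and groups taken from the sample labels. The authors quantified paired-end reads of poly(A) RNA with kallisto (version 0.46.1 in the submitters' processing notes, which also name DESeq2 1.44.0) against GRCm39 transcripts, and deposited 1 table per library in which 116873 transcripts each have an estimated count and a TPM. The study's text gives other oxygen and L929 percentages and another DESeq2 version than the labels and notes, and the labels were followed. The deposited estimated counts are not scaled between libraries. Transcripts were matched by identifier to GENCODE vM39 (99.4% matched, and the unmatched ones, with 0.542% to 0.575% of a library's reads, were dropped). Counts were then summed by gene and rounded to whole numbers. The deposited TPM values were added per gene for levels per length. The counting error of a sum of estimated counts is not given in the tables.

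Genes with at least 10 counts in total were tested with edgeR 4.0.16 (R 4.3.3, TMM, quasi-likelihood test, no covariate, Benjamini-Hochberg over 18506 genes). The test was first tested on simulated data. DESeq2 1.42.0, other scalings, other filters, length-scaled counts, a replicate block, leaving out each library and, chosen after seeing the data, libraries 2 and 3 only were the alternatives. The standard error of a log2 fold change was taken as its size over the root of F. Deviations from the group mean correlated at 0.51, 0.204 and 0.298 between libraries with the same number (12248 genes), and between libraries with different numbers from -0.443 to 0.326, the highest for WT library 2 with Drp1 KO library 3. Each same-numbered value was over 0.1, so the block is reported as a paired alternative beside the unpaired test. The study states no pairing, and the data do not single out the pairs of libraries 2 and 3. No library was a copy of another. Sequence sharing was counted in 31-base words of coding sequence. The members and lists were chosen with earlier results of these data known. All 10 receptors are named, and of each list the genes with an adjusted p under 0.05 and the most abundant others, with exceptions stated. The values of 1 listed gene are not reported here.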

Additional observations from a re-analysis of the deposited data

How the results depend on the processing

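Over 14 alternatives the 10 receptors kept the direction of their log2 fold change in all 140 cases and the side of the threshold in 116, with 16 calls lost and 8 gained. The number of receptors called (6) ran from 1 to 6 with a library left out, was 8 with DESeq2 and with a filter of at least 1 count, 4 with length-scaled counts and 9 with the replicate block. The number of all genes called (621) was 1155 with DESeq2, 1065 with a filter of at least 1 count, 2212 with the replicate block and 1880 with libraries 2 and 3 only, and 181 to 904 with a library left out. Of the activating adaptors and kinases (0 called) 1 was called with at least 1 count, with the block and with libraries 2 and 3 only, and 0 to 1 with a library left out. Of the SYK-CARD9 target genes (0 called) 1 was called with DESeq2, with at least 1 count and with the block. Of the other C-type lectins (4 called) 2 were called with length-scaled counts, 7 with the block and 0 to 4 with a library left out. Signs turned only in values that missed the threshold. *Irf8* had -0.007 with length-scaled counts and *Fcer1g* -0.018 with libraries 2 and 3 only. With a library left out, log2 fold changes ran from -0.047 to 0.273 for *Fcer1g*, -0.40 to 0.30 for *Cebpb*, -0.17 to 0.27 for *Irf8*, -0.182 to 0.034 for *Nlrp3* and -0.055 to 0.077 for *Clec2d*. The share of *Clec4n-201* differed by -0.32 percentage points when taken from TPM, and with a library left out by -0.69 to 0.93, that of *Clec5a-201* by -1.0 to 3.56, of *Clec12a-201* by -1.65 to 1.72 and of *Clec10a-202* by -9.07 to 2.72. The replicate block changed the calls of *Clec4e*, *Clec4n* and *Clec10a* and of no other receptor. The causes of these changes were not tested. With 3 libraries a group, single libraries set which calls pass. Among the 10 receptors *Clec10a* had the fewest counts, 774 in WT and 537 in Drp1 KO libraries.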
